A study of Mus musculus with 14 samples.

Results

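The genes of the cytosolic ribosome were followed gene by gene in mouse cortex, in RNA and in ribosome footprints. Members were every gene whose symbol follows the mouse naming of ribosomal proteins (Rpl or Rps with a number and at most a short suffix, Rplp0 to Rplp2, and Rpsa). Rpl22 was left out because it carries the engineered allele of these mice. The rule found 80 of the 23412 genes in the table, 49 of the large subunit and 31 of the small subunit. Control mice were Rpl22flox/flox;CamKCre+, and knock-out mice (KO) were Fmr1X-Y; Rpl22flox/flox;CamKCre+, so both genotypes had the floxed Rpl22 and the Cre. The CamK promoter drives Cre in forebrain excitatory neurons, but no capture of tagged ribosomes is named, so the libraries are read here as RNA and footprints of whole cortex. The RNA-seq libraries were from mice 1, 3, 6 and 8 (control) and mice 2, 4, 5 and 7 (KO). Ribosome profiling sequences the mRNA fragments that ribosomes shield from nuclease, and its libraries were from mice 1, 3 and 9 (control) and mice 2, 4 and 10 (KO). Ages are not given in the sources used here.

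A ribosome joins a small subunit, which reads the mRNA, with a large subunit, which forms the peptide bonds. Each subunit is built from ribosomal RNA and a set of proteins. The mRNAs of these proteins begin with a tract of pyrimidines at the 5' end, through which growth signals from mTOR raise or lower their translation as a group. Fmr1 encodes FMRP, an RNA-binding protein of neurons that associates with ribosomes translating its targets.

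Promoter windows are shown for 6 of the members with large RNA or footprint changes described below. Each runs from 30 bases before to 30 bases after the start of a RefSeq transcript (GRCm38.p6), written 5' to 3' on the gene's strand. Capitals mark either an unbroken run of at least 8 C or T that touches positions -10 to 20 around the start, or CCGGAAG on either strand, the core of an ETS factor motif.
Rpl35, chr2:39005102-39005161, minus strand: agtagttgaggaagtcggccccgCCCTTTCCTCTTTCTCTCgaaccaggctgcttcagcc
Rpl35a, chr16:33056452-33056511, plus strand: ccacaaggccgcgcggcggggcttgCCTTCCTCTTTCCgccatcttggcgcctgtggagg
Rpl37, chr15:5116583-5116642, plus strand: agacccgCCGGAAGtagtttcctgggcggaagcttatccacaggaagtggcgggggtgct
Rps28, chr17:33824533-33824592, minus strand: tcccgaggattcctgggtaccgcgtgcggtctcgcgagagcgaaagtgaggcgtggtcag
Rpl23, chr11:97782410-97782469, minus strand: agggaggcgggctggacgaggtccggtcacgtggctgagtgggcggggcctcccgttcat
Rpl36al, chr12:69184038-69184097, minus strand: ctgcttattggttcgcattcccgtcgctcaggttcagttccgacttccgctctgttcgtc
The run of C or T was 18 bases long in Rpl35 and 13 in the window shown for Rpl35a, which is 1 of its 3 annotated starts. No such run was in the windows of Rps28, Rpl23, Rpl36al and Rpl37. Rps27l, whose RNA fell as much as that of Rpl35, is not shown. A window of Rps27l held a run of 9 bases and CCGGAAG, and its other window held neither. Of 71 windows that matched 60 members, 31 (43.7%) held such a run, against 16.9% of all 32851 promoter windows in the RefSeq table. CCGGAAG was in 26 of the members' 300-base windows (36.6%) and in 8.86% of all windows. A match describes the letters of a window and not a bound factor.

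Fmr1, the knocked-out gene, was at a mean of 82.9 CPM (counts scaled to a common library size) of RNA in controls and 21.7 in KO mice, and at 113 and 7.44 CPM in footprints. Total counts were 8847547 to 11371851 per RNA library and 4124065 to 6033030 per footprint library. Among the RNA libraries of the KO mice, mice 2, 4 and 7 were close to each other, with a chi-square of 1.18 to 1.32 for each degree of freedom where sampling alone gives about 1, and mouse 5 stood at 5.64 to 6.02 from them. Control mice 1 and 3 were at 1.99 and the other control pairs at 4.03 to 11.79. Footprint pairs within a genotype were at 1.20 to 1.46, as close as these close RNA libraries. The RNA results are therefore also given with the close libraries summed (KO mice 2, 4 and 7 as 1 sample, control mice 1 and 3 as 1) and in mice 5 to 8 alone. The footprint libraries were not summed, because this would leave 1 sample a genotype. Results that use footprints therefore have no matching check, and their p-values are not firmer than those of RNA for that reason. The labels number the mice, and the titles give each library a prefix and a barcode whose meaning they do not state. The close KO mice 2, 4 and 7 carry the prefixes PD009, PD019 and PD028, and control mice 1 and 3 carry PD009 and PD019. The p-values measure the spread between these samples, which may be technical in part.

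In control cortex the ribosomal protein genes had far fewer footprints than their RNA. The 80 members took 1.41% to 1.53% of all RNA counts in the 4 control libraries and 0.141% to 0.147% of all footprints in 3. For each gene the footprint CPM was divided by the RNA CPM, a ratio within a gene from which its length drops out only where both assays were counted over the same region, and tested with edgeR's quasi-likelihood method. All 38 members with enough counts in both assays were lower in footprints, with a median log2 ratio of -3.34 against -0.01 for all genes. Among all 12145 genes tested 38.7% were called lower and 36.4% higher, so the members' count exceeds the background and so does their size: the lowest 5% of all genes lay below -1.78, and 31 of these 38 genes lay below that. The medians of the large subunit (-3.37, 20 genes) and the small subunit (-3.27, 18 genes) were close to each other.

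The ratio differed widely within each subunit. Rpl8, which sits next to the peptidyl transferase centre, kept the highest ratio, with a log2 value of -0.52 ± 0.05 (SE), or 69.6% of its RNA level. Rps27l, a p53-inducible relative of Rps27, was at -0.67 ± 0.15 (62.8%). Rps9 and Rps3, which line the path of the mRNA into the small subunit, were at -0.83 ± 0.07 (56.2%) and -0.92 ± 0.05 (52.8%). Rpl4, whose loop reaches into the exit tunnel, was at -1.56 ± 0.05.
At the other end Rpl26, at the mouth of the exit tunnel, was at -6.34 ± 0.12, or 1.24% of its RNA level. Rps4x, the X-linked small subunit protein, was at -6.19 ± 0.12 (1.37%), Rps20 of the small subunit head at -6.08 ± 0.13 (1.48%) and Rps2, near the mRNA entry, at -5.97 ± 0.18 (1.60%). Rpl26, Rps4x, Rps20 and Rps2 were among the lowest 0.0659% of all genes tested, and Rpl8 lay at the 29.1 percentile.
Rpl8, Rps3 and Rpl4 together held 46.1% of the members' footprints in controls and 10.4% of their RNA counts.

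**Figure D1:**
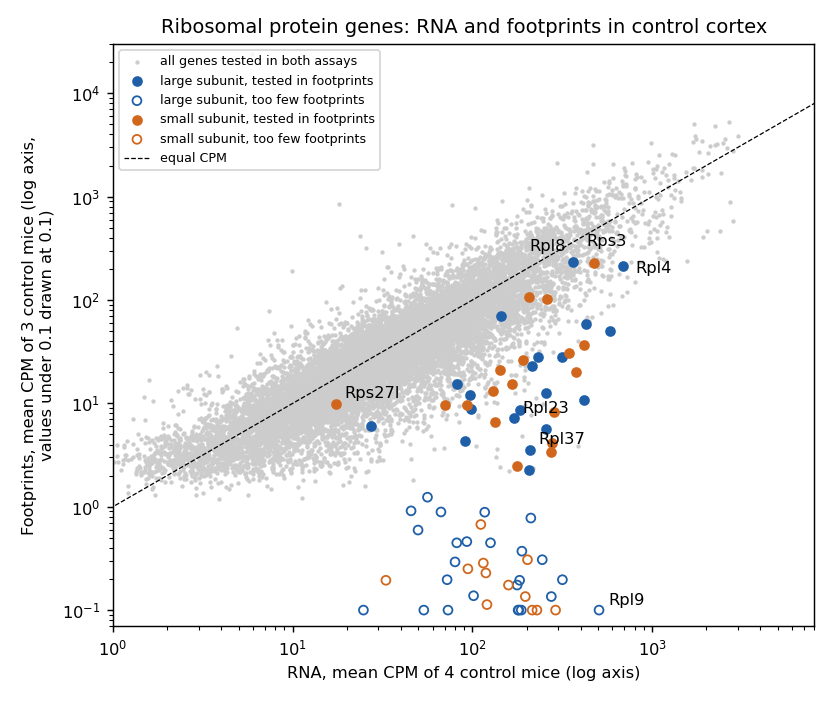
Mean footprint CPM of 3 control mice against mean RNA CPM of 4 control mice, both on log axes and not corrected for gene length, for genes tested in both assays (grey), large subunit members (blue) and small subunit members (orange). Every member lies below the line of equal CPM, and open circles are the 37 members with too few footprints to test, such as Rpl9.

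The zero of this ratio depends on which RNA columns are used. The table holds a second set of RNA columns, headed exon, whose totals were 1.76 to 1.89 times larger, while the sums of 64 of 75 members were within 10% of those in the first set. Rpl8 had 3569 counts in both columns of control mouse 1. At the high end 5 members had sums over 1.5 times larger in the exon columns. They were Rpl39 (5.24 times), Rpl41 (4.22), Rpl15 (2.86), Rpl27a (1.62) and Rps15a (1.62). Rpl26 and Rpl30 were the exceptions at the low end: summed over the RNA libraries, Rpl26 had 0 counts in the exon columns and 14139 in the first set, and Rpl30 had 28 and 7158. Neither could be tested with the exon columns, so every value of Rpl26 that uses its RNA rests on the first set alone. With the exon columns 34 of 36 members remained lower (against 40.7% of all genes). Rpl8 was at 0.26, above 0 by edgeR (adjusted p = 2.78e-05), and Rps9 at -0.07 was not called. Rps3 was then at -0.20 and Rps27l at -0.35.

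The 37 members tested in RNA but with too few footprints were 25 large subunit and 12 small subunit genes, and their RNA was not scarce. Together they gave 184 footprints in the 3 control libraries and 190 in the 3 KO libraries. In 35 of them no footprint library reached 10 counts. Rpl39 had 213 to 272 RNA counts per library, or 924 to 1504 in the exon columns. It had 0 footprints in all 6 footprint libraries, where a count of 0 allows up to 3. Rpl9, a large subunit protein near the stalk base, had 3792 to 5215 RNA counts per library and footprint counts of 0, 0 and 0 in control mice 1, 3 and 9 and of 0, 1 and 3 in KO mice 2, 4 and 10. Rpsa, the laminin receptor protein of the small subunit, had 2051 to 3104 RNA counts and 0, 0 and 0 footprints in controls against 2, 0 and 1 in KO. Pooled over controls, the log2 ratio was -11.85 for Rps29, with 1 control footprint. These counts are too low to compare the genotypes gene by gene.
Between 2 and 6 footprints over all 6 libraries were found in 19 members, among them Rpl9, Rpsa, Rpl15, Rpl28, Rpl5, Rpl27a, Rpl31, Rps12, Rps29, Rpl13, Rpl17, Rpl38, Rpl21, Rpl24, Rps13, Rps27a (made as a fusion with ubiquitin), Rps16 and Rps23. Rpl10, Rpl11, Rps28, Rpl23a, Rpl35 and Rpl12 had 7 to 9. Among 9 members with 12 to 31 were Rps6 (the substrate of S6 kinase), Rpl36, Rpl10a, Rps7, Rpl36a, Rpl37a, Rpl27 and Rpl29. Rpl19 had 40 and Rpl41, the smallest of the ribosomal proteins, had 47, with at most 15 in a library.

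Few other genes of this depth lacked footprints. Of 8978 genes with an RNA count at least that of Rps27l, the lowest member tested, 103 (1.15%) had too few footprints to test, and 37 of those 103 were members. Ribosomal protein genes that the naming rule does not reach lay on both sides. Fau, which encodes a ubiquitin-like part fused to a ribosomal protein, was at 74.5 CPM of RNA and 0.482 CPM of footprints in controls. Gnb2l1, the symbol used in the table for the scaffold protein Rack1, was at 274 CPM of RNA and 180 CPM of footprints.
Many ribosomal protein genes have processed copies elsewhere in the genome, and a short read that matches several copies can be dropped or split by counting. RefSeq symbols and synonyms name pseudogenes of 59 of the 75 members tested in RNA, a list that is not complete. The 16 members with no named pseudogene had a median pooled log2 ratio of -3.88, the 35 with 1 to 4 had -6.33, and the 24 with 5 or more had -8.10. Rpl8, Rpl4, Rps3, Rps9 and Rps27l were among those with none. Rpl11, Rpl24, Rpl41 and Rps28 also had none and too few footprints. The counting of shared reads is not given in the sources used here, its part in these ratios was not tested, and footprint levels of members with named copies are uncertain.

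In KO cortex the RNA of ribosomal protein genes was lower. By edgeR 35 of 75 members tested fell (46.7%, against 3.94% of all genes tested) and 0 rose (against 3.58%), with 1 member above 0 at an unadjusted p under 0.05 and 0 called higher by DESeq2. The median log2 change was -0.23, against 0.00 for all genes, and 71 of 75 members were below 0. KO and control libraries did not overlap in 41 of 75 members, all of them lower in KO (against 7.97% of all genes tested, and 7.10% higher), and overlapped in 34. Of the large subunit 19 of 45 fell and of the small subunit 16 of 30, with medians of -0.25 and -0.22.

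Rps28, which lies by the mRNA exit, had 107, 108, 119 and 127 CPM in control mice 1, 3, 6 and 8 and 75.6, 75.6, 77.5 and 82.0 CPM in KO mice 2, 4, 5 and 7. All KO libraries were below all control libraries, and Rps28 fell by 0.57 ± 0.07 (log2, SE; edgeR adjusted p = 0.000342). Rpl35, beside the exit tunnel, had 78.25, 75.4, 78.0 and 88.55 CPM in controls and 56.4, 51.7, 56.2 and 54.05 in KO mice. The groups did not overlap, and Rpl35 fell by 0.55 ± 0.07 (edgeR adjusted p = 0.000356).
Rps27l fell by 0.55 ± 0.11 (edgeR adjusted p = 0.00752), from 15.2 to 20.1 CPM in controls to 11.2 to 12.7 in KO mice. Rps14, of the platform of the small subunit, had 440.2, 445, 411 and 380.3 CPM in controls and 287, 282.5, 350.4 and 292 in KO mice. KO mouse 5 was the nearest to the controls, and the fall was 0.47 ± 0.07 (edgeR adjusted p = 0.00227). Rps7 likewise fell by 0.46 ± 0.07 (edgeR adjusted p = 0.00227), with KO mouse 5 at 167 CPM and the other KO mice at 136 to 146.
The members above 0 did not pass the test: Rps16 was at 0.33 ± 0.15, Rpl10, needed for the last step of large subunit maturation, at 0.10 ± 0.06, Rpl3 at 0.08 ± 0.06 and Rps27a at 0.02 ± 0.07. In Rps16 the controls spread from 22.8 to 46.7 CPM and contained all KO libraries (40.8 to 44.2).

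**Figure D2:**
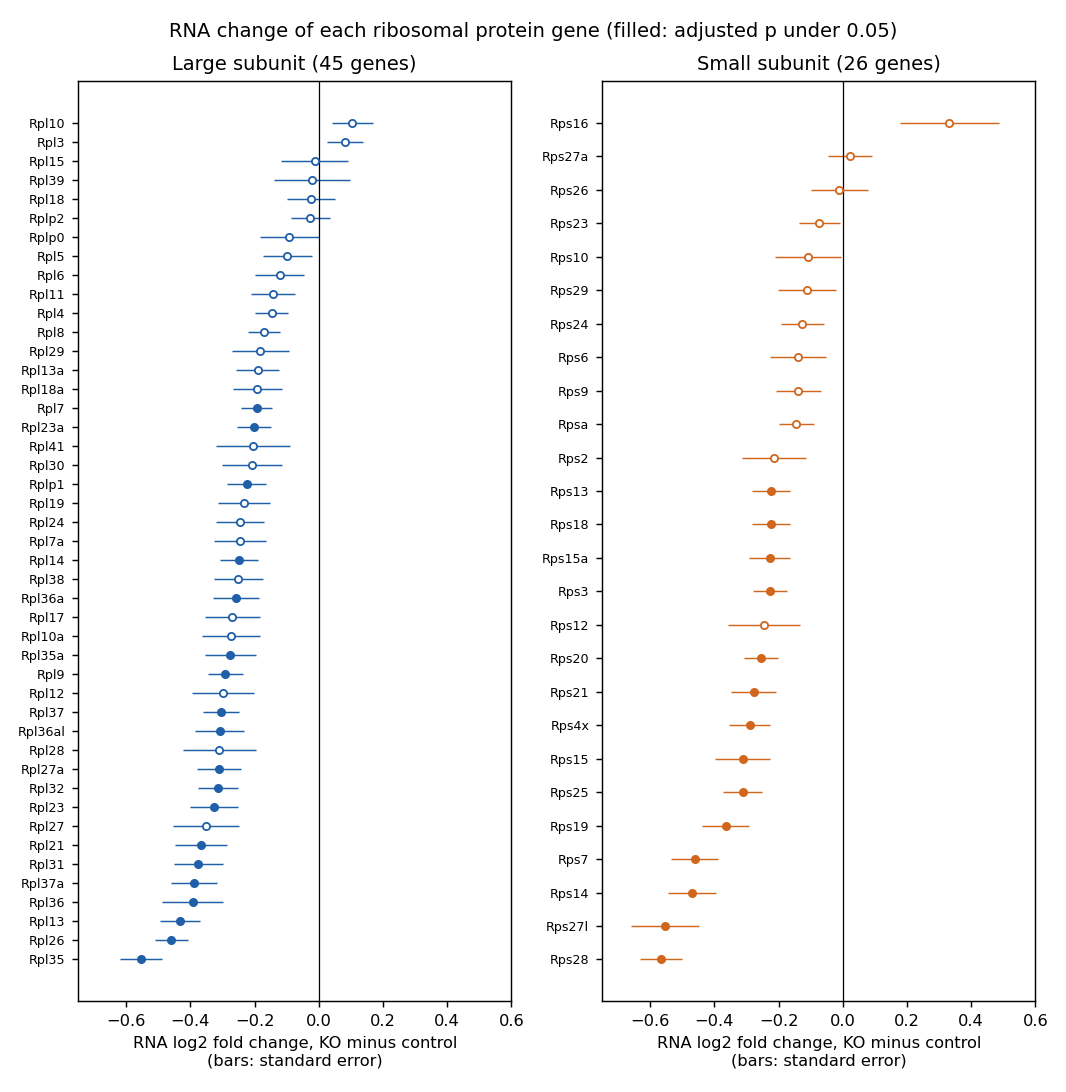
Log2 change of RNA in KO against control for 45 large subunit and 26 of the 30 small subunit genes, with the standard error as bars and filled points where the edgeR adjusted p was under 0.05. In both panels nearly all points lie left of 0, from Rps28 and Rpl35 at the low end to Rps16 and Rpl10 at the high end.

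Fewer members fell when the close libraries were summed and in a subset of mice. With the close libraries summed, 3 members fell (Rps28, Rpl35 and Rpl26) against 0.139% of all genes, and in mice 5 to 8 alone 5 fell (Rps28, Rpl35, Rpl26, Rps15 and Rps19) against 0.222%. The median change remained: -0.25 summed and -0.26 in mice 5 to 8, where 66 of 75 members were below 0. Rps28 was then at -0.60 (edgeR adjusted p = 0.0318) and -0.62 (edgeR adjusted p = 0.0061), while Rps14, Rps27l and Rps7 were not called in either. Rps14 was at -0.37 and -0.30, Rps7 at -0.42 and -0.44, and Rps27l at -0.58 and -0.62, the last of these farther from 0 than in the fit to all libraries. Leaving out KO mouse 2, 4 or 7 or control mouse 6 gave 15, 16, 18 and 19 members that fell, leaving out control mouse 1 or 3 gave 25 and 30, and leaving out KO mouse 5 or control mouse 8 gave 36 and 38. The share of all genes that fell moved too, to 1.51%, 1.41%, 1.57% and 2.09% in the first 4 of these, to 1.97% and 2.85% without control mouse 1 or 3, and to 6.31% without control mouse 8. In mice 1 to 4 alone, a subset chosen after seeing the data that holds only close pairs, 43 members fell against 11.8% of all genes and 3 rose against 12.3%. Mice 1 to 4 and mice 5 to 8 each give 2 samples a genotype, and the cause of the difference between 43 and 5 was not tested.
Markers of other cells moved with genotype as well, and their part in the RNA change was not tested. The summed RNA of 6 excitatory neuron markers was 2493 to 2765 CPM in controls and 3135 to 3408 in KO mice, with 2 of 6 genes called higher. For 5 oligodendrocyte markers it was 4307 to 4791 and 3707 to 4068 CPM, with 1 called lower. For 4 hypothalamus genes (Hcrt, Pmch, Avp and Oxt) it was 31.3 to 61.3 and 12.8 to 18.7 CPM, with 3 called lower, and for 7 immediate early genes 196 to 408 and 369 to 841 CPM, with all 7 called higher. The sums of the astrocyte, microglia, endothelium, red blood cell, choroid plexus, striatum and inhibitory neuron markers overlapped between genotypes. Within these lists the astrocyte genes Gfap (-0.47 ± 0.05) and Aqp4 (-0.46 ± 0.07), Kcnj13 of the choroid plexus (-0.97 ± 0.24) and Pvalb of inhibitory neurons (-0.35 ± 0.07) fell, and Slc32a1, the vesicular transporter of inhibitory neurons, rose by 0.565 ± 0.07. In tissue RNA, fewer cells that make a gene's RNA and less RNA per cell cannot be told apart.

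Footprints moved the other way. By edgeR 16 of 38 members tested rose in KO mice (42.1%, against 12% of all genes tested) and 1 fell (2.63%, against 13.7%). The median log2 change was 0.17, against 0.01 for all genes, and 27 of 38 were above 0. All KO libraries were above all control libraries in 16 members (against 18.1% of all genes tested) and below them in 3 (against 19.2%), and the groups overlapped in 19. Rps24 was among those that rose with an overlap of libraries, while Rps2 and Rps21 did not overlap and were not called. Of the large subunit 8 of 20 rose and of the small subunit 8 of 18.
Footprints of other cells' markers moved with genotype too, and their part in the changes of footprints and of their ratio to RNA was not tested. The summed footprints of the 4 hypothalamus genes were 89.2 to 97.5 CPM in controls and 32.02 to 34.6 in KO mice, with all 4 called lower and a median log2 change of -1.86. Those of the 7 immediate early genes were 551.5 to 602 and 2029 to 2061 CPM, with all 7 called higher and a median of 2.44. The astrocyte sum was 1631 to 1674 and 1516 to 1535 CPM (2 of 5 called lower), and the choroid plexus sum 9.68 to 13.7 and 4.74 to 7.39 CPM (2 of 3 called lower). The inhibitory neuron sum was higher in KO mice, at 1637 to 1658 against 1574 to 1618 CPM (2 of 5 called higher and 1 lower). The sums of the excitatory neuron, oligodendrocyte, microglia, endothelium, red blood cell and striatum markers overlapped between genotypes. Of these lists, 3 of 6 excitatory neuron genes were called higher and 1 lower, 1 of 5 oligodendrocyte genes higher and 2 lower, 2 of 4 striatum genes higher and 1 lower, and 1 of 4 endothelium genes in each direction.

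Rpl23, a large subunit protein at the face that meets the small subunit, had 7.79, 7.29 and 6.56 CPM in control mice 1, 3 and 9 and 21.35, 18.4 and 16.1 in KO mice 2, 4 and 10. These values rest on 33, 43 and 37 footprints in controls and 90, 82 and 77 in KO mice. The groups did not overlap, and Rpl23 rose by 1.37 ± 0.17 (log2, SE; edgeR adjusted p = 1.34e-10), the largest rise of any member.
Rpl37, a small zinc-binding protein of the large subunit, had 4.485, 3.22 and 3.01 CPM in controls and 6.64, 9.85 and 7.12 in KO mice, and rose by 1.17 ± 0.25 (edgeR adjusted p = 0.000138). Its counts were low, 17 to 19 footprints in controls and 28 to 44 in KO mice. Rpl36al had 5.43, 7.46 and 5.32 CPM in controls and 13.5, 13.4 and 13.2 in KO mice, and rose by 1.12 ± 0.19 (edgeR adjusted p = 1.36e-06).
Rpl35a, mutated in some families with Diamond-Blackfan anaemia, had 4.72, 5.09 and 3.19 CPM against 8.065, 6.495 and 9.84, and rose by 0.92 ± 0.24 (edgeR adjusted p = 0.00176). Rpl14 had 5.43, 6.275 and 5.14 CPM against 8.30, 11.2 and 11.9, and rose by 0.90 ± 0.21 (edgeR adjusted p = 0.000383). In Rpl37, Rpl36al, Rpl35a and Rpl14 the KO and control libraries did not overlap.

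Genes with more footprints had smaller standard errors. Rps15, close to the decoding site, had 29.98, 31.9 and 29.4 CPM in controls and 50.8, 61.8 and 50.5 in KO mice, a rise of 0.83 ± 0.09. Rpl4 rose by 0.23 ± 0.04, Rps3 by 0.15 ± 0.04 and Rpl8 by 0.14 ± 0.04, with no overlap between genotypes in Rps15, Rpl4, Rps3 or Rpl8. Rpl6, Rps18, Rps24, Rps15a and Rps9 also rose, by 0.19 to 0.65. Among the 16 members with a mean of at least 20 CPM in footprints, 8 rose and the changes ran from -0.16 to 0.83. Among the 22 below that level 8 rose and 1 fell, and the changes ran from -0.69 to 1.37. Of all genes tested, at any depth, 12% rose and 13.7% fell, and their shares at each of these depths were not counted.
Rps25, needed for initiation at several viral internal entry sites, was the 1 member that fell. It had 16.5, 15.6 and 13.8 CPM in controls and 9.96, 10.97 and 10.5 in KO mice, a fall of 0.54 ± 0.16 (edgeR adjusted p = 0.008), while DESeq2 gave an adjusted p of 0.0612. The stalk proteins Rplp0, Rplp1 and Rplp2, which recruit the elongation factors, were at 0.23 ± 0.11, 0.04 ± 0.08 and -0.16 ± 0.07 and did not pass the test.

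**Figure D3:**
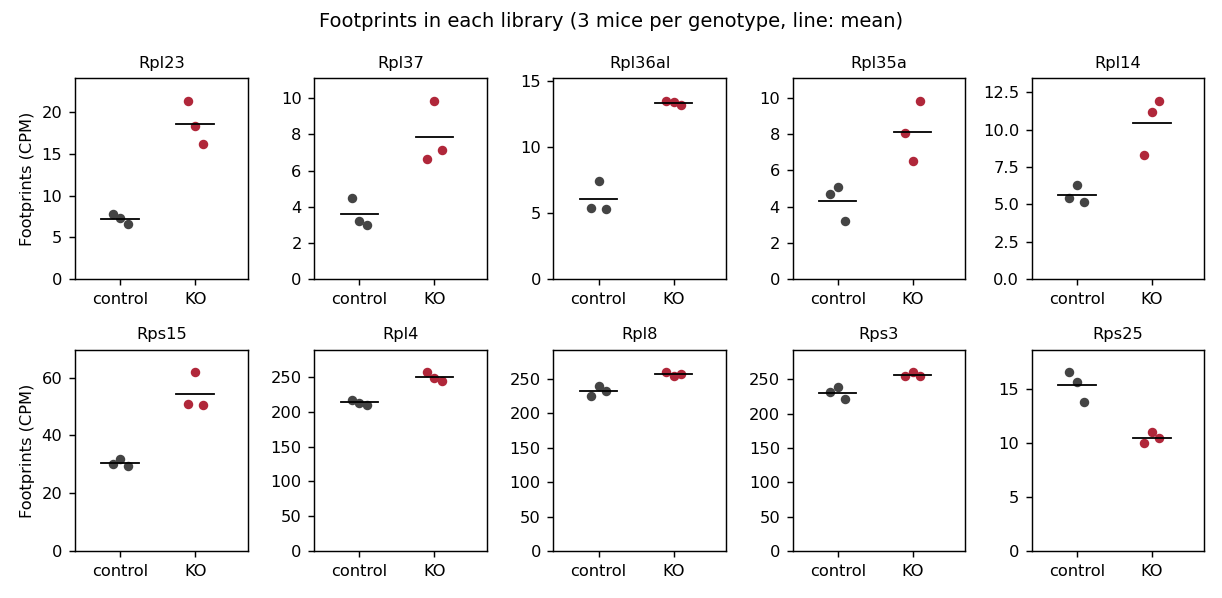
Footprint CPM of 10 members in each of 3 control libraries (grey) and 3 KO libraries (red), with the mean as a line and axes from 0. KO points lie above control points in every panel except Rps25, where they lie below.

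Translational efficiency (TE), the footprint change beyond the RNA change of the same gene, was tested as an interaction in an edgeR model over all 14 libraries. TE rose in 19 of 38 members (50%, against 3.19% of all genes tested) and fell in 0 (against 4.24%), with 0 below 0 at an unadjusted p under 0.05 and 0 called lower by limma voom. The median log2 change was 0.37, against -0.01 for all genes. Rpl23 was at 1.69 ± 0.19 (edgeR adjusted p = 1.41e-05), Rpl37 at 1.47 ± 0.23, Rpl36al at 1.42 ± 0.18, Rpl35a at 1.19 ± 0.27 and Rpl14 at 1.14 ± 0.20. Rps15 at 1.14 ± 0.16 and Rps18 at 0.87 ± 0.21 followed in the small subunit.
In 10 members RNA fell, footprints rose and TE rose, among them Rpl14, Rpl23, Rpl35a, Rpl36al, Rpl37, Rps15, Rps15a, Rps18 and Rps3. In Rpl26, Rpl32, Rpl7 and Rps14 TE rose and RNA fell while the footprint change did not pass the test. Rpl26 had 7 to 20 footprints in controls and 15 to 16 in KO mice, and reached the filter level of 2.21 CPM in 1 control library and in all 3 KO libraries, so it entered the test through the group where it is high and its TE call is no support for a change. The other 18 members in which TE rose reached that level in all 6 footprint libraries. In 5 members, among them Rpl4, Rpl6, Rpl8 and Rps24, TE and footprints rose while the RNA change did not pass. These joint patterns were not counted over all genes, so the 10, 4 and 5 members have no background share. Rps25 fell in RNA and in footprints and its TE was at -0.23 ± 0.16. Rps27l and Rps4x fell in RNA, with TE at 0.32 ± 0.23 and 0.04 ± 0.32. With the close RNA libraries summed and the footprint libraries kept apart, TE rose in 12 members (against 1.51% of all genes). Without KO mouse 2 or control mouse 9 it also rose in 12 (against 1.30% and 2.16%). With the mouse as a block it rose in 16 (against 6.63%), and Rpl35a was then at 0.71 (edgeR adjusted p = 0.0794). Several of these changes rest on few footprints, as given for Rpl23 and Rpl37 above.

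**Figure D4:**
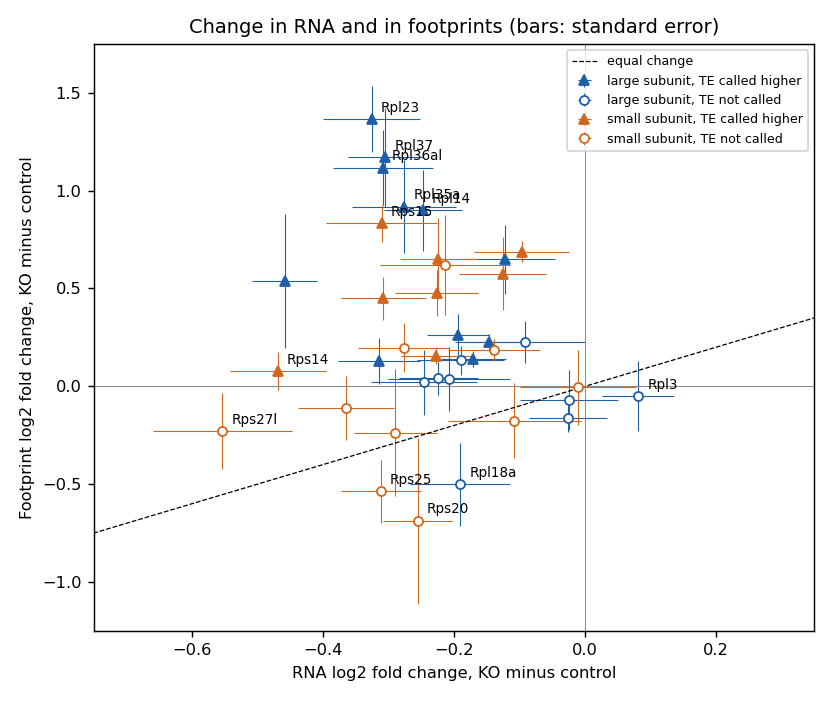
Log2 change of footprints against log2 change of RNA (KO against control) for the 38 members tested in both assays, with standard errors as bars. Triangles are the 19 members whose TE rose by the edgeR test, and all of them lie above the dashed line of equal change, led by Rpl23, Rpl37 and Rpl36al.

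Summed over each subunit, RNA was lower and footprints were higher in KO mice. The summed RNA of the 49 large subunit genes was 8754 ± 319 CPM (SD, n = 4) in controls and 7549 ± 189 in KO mice, and that of the 31 small subunit genes 5927 ± 279.4 and 5047 ± 62.7. No library overlapped between genotypes in either sum. The ratio of the large to the small sum was 1.48 ± 0.02 in controls and 1.496 ± 0.03 in KO mice, and overlapped. In footprints the large subunit sum was 811 ± 11.8 CPM (SD, n = 3) in controls and 920.1 ± 17.4 in KO mice, and the small subunit sum 659 ± 21.9 and 809 ± 19.7. The ratio was 1.23 ± 0.03 in controls and 1.14 ± 0.04 in KO mice, at 1.21 to 1.26 and 1.097 to 1.19. These ratios compare sums of counts not corrected for length and do not give the numbers of subunits.

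**Figure D5:**
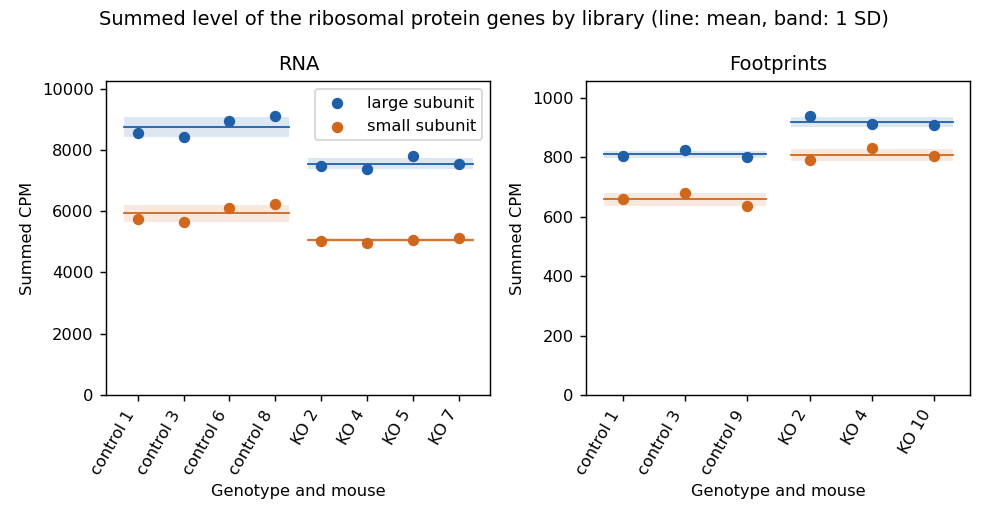
Summed CPM of the large subunit genes (blue) and small subunit genes (orange) in each RNA library (left) and footprint library (right), with the group mean as a line and 1 SD as a band. The 4 KO libraries lie below the 4 control libraries in RNA, and the 3 KO libraries lie above the 3 control libraries in footprints.

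Several members have a close relative in the table. Rpl36al, a retrotransposed copy of Rpl36a, had 27.2 CPM of RNA and 6.07 CPM of footprints in controls, and Rpl36a had 93.1 and 0.46. In RNA both fell, by 0.31 ± 0.08 and 0.26 ± 0.07. Rps27l was measured, while Rps27 had 0 counts in every library of both assays. Rpl34 also had 0 throughout, although the exon columns held 5 to 12 counts of Rpl34 and 11 to 25 of Rps27. Rpl3l, the striated muscle form of Rpl3, had 1 to 5 RNA counts per library, and Rpl10l and Rpl39l, expressed mainly in testis, had 0 and at most 3. Rpl3l, Rpl10l, Rpl39l, Rpl34 and Rps27 were not tested.

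Genes related by function were described in the same way. Of the 4 ribosomal protein genes outside the naming rule all were below 0 in RNA, with a median of -0.11, among them Rps3a1 at -0.12 ± 0.08 and Fau at -0.03 ± 0.08 (edgeR adjusted p = 0.421 and 0.857). Footprints of Gnb2l1 rose by 0.24 ± 0.04. Of 15 other mRNAs known to begin with a pyrimidine tract, 2 fell in RNA (3.94% of all genes did), among them the elongation factor Eef1a1 (-0.31 ± 0.06), and the median was -0.08. In footprints 1 rose and 5 fell (12% and 13.7% of all genes), with a median of -0.05, and the median TE change was -0.05. Members with and without a run of C or T at an annotated start had median RNA changes of -0.23 (28 genes) and -0.28 (27 genes).
Of 39 ribosome assembly factors 3 fell in RNA (against 3.94% of all genes), and in footprints 6 rose and 5 fell, shares near those of all genes (12% and 13.7%). TE rose in 4 and fell in 1 (against 3.19% and 4.24% of all genes), with a median of 0.03. Of 76 mitochondrial ribosomal proteins 7 fell and 1 rose in RNA (against 3.94% and 3.58% of all genes), with a median of -0.10. In footprints 25 of the 74 tested rose (against 12% of all genes), with a median of 0.17. TE rose in 11 (against 3.19%), with a median of 0.26.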

How the data were processed

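RNA-seq (8 libraries) and ribosome profiling (6 libraries) of mouse cortex were analysed from a table of raw counts per gene that the authors deposited. Bowtie2, STAR 2.5, featureCounts, Subread 1.4.6 and the builds mm9 and mm10 are named, with no role, per the submitters' processing notes. The region counted, the strand setting and the treatment of reads shared by several genes are not given in the sources used here. The tests used the RNA columns with no suffix, whose genes match those of the footprint columns, and left out 2849 genes that hold no value there. Depth was 8847547 to 11371851 counts for RNA libraries, and 4124065 to 6033030 for footprint libraries.

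Low genes were removed with filterByExpr (minimum count 10) and the rest scaled by TMM and tested with edgeR 4.0.16's quasi-likelihood F test in R 4.3.3, without covariates, separately for RNA and footprints. TE and the footprint to RNA ratio in controls came from 1 such model over all 14 libraries with assay, genotype and their interaction. All tests were two-sided, with Benjamini-Hochberg adjustment over all genes tested, and called means an adjusted p-value under 0.05. Standard errors were derived from the F statistic. "Rose" and "fell" are used of called genes. Pooled ratios of members with too few footprints compare summed CPM, with 0 taken as 3 counts, and cover counting error only. Alternatives used DESeq2 1.42.0, limma 3.58.1 (voom), other scalings, no filter, the exon columns, blocks, summed libraries, subsets of mice and each mouse left out; mice 1 to 4 alone were added after seeing the data. The tests were tried on simulated counts.

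Mice 1 to 4 gave libraries to both assays by their labels. The correlation of a mouse's deviations between assays was -0.01 to 0.03 over 12145 genes.

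Named genes were, for each comparison, up to 5 called members by size in each direction, the 4 highest and 4 lowest footprint to RNA ratios, members with too few footprints, and close relatives; other members were named after their values were seen. Members, gene lists and named-gene rule were chosen with earlier results of these data known. All 80 members matched the RefSeq gene table (GRCm38.p6), and 60 had a promoter window. Windows of 6 genes are shown. A few genes of the lists are counted in totals but not reported here by name.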

Additional observations from a re-analysis of the deposited data

Results flagged for a closer look

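Values that stood apart within their group were sought in 22 RNA quantities of the members, in 44 groups of 4 libraries. In all, 4 such values were found, and chance flags about 1 in 20 groups. Rpl14 RNA was at 239.3 CPM in KO mouse 5, against 206.6 to 208.7 in the other KO mice, a gap of 0.936 of the range. Rpl8 was at 341 CPM in KO mouse 5, against 314.8 to 318.2, and at 374.2 CPM in control mouse 6, against 358.4 to 360.8. Rps14 was at 350.4 CPM in KO mouse 5, against 282.5 to 291.9. KO mouse 5 is the KO library that differs from mice 2, 4 and 7 over all genes.

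Rpl34 and Rps27, listed at 0 in the RNA and footprint columns used for the tests, had counts in the exon columns, up to 12 for Rpl34 and up to 25 for Rps27.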

How the results depend on the processing

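The RNA count of 35 members that fell became 3 with the close libraries summed and 5 in mice 5 to 8, ran from 15 to 38 with each mouse left out (0 to 1 rose), and in mice 1 to 4 alone, added after seeing the data, was 43 with 3 that rose. The share of all genes that fell moved with it, from 3.94% to 0.139%, 0.222%, 1.41% to 6.31% and 11.8% (12.3% rose). The RNA median was -0.25 to -0.19 with a mouse left out. In footprints 14 to 17 members rose with a mouse left out (against 9.44% to 10.6% of all genes). In these fits 1 to 2 members fell (against 11.2% to 12.8%). By DESeq2 0 fell and 11 rose in footprints (against 8.62% and 6.36%). TE rose in 12 members with the close RNA libraries summed (against 1.51% of all genes) and in 12 to 20 with a mouse left out (against 1.30% to 4.63%). The equally close footprint libraries were not summed for footprints or TE. With the mouse as a replicate block TE rose in 16 members, with a median of 0.39; the assays' deviations were not correlated by mouse. Without a filter on low counts 74 of 76 members were lower in footprints than in RNA in controls (against 33.6% of all genes). With the exon columns Rpl8 turned to 0.26 there. Removing the filter adds genes; the cause of the other shifts was not tested. On plain library sizes the median of all genes in footprints was 0.07 and that of the members 0.23. Named genes kept their call in 79 of 85 values for RNA, 63 of 64 for footprints, 88 of 90 for TE and 69 of 71 for the control ratio. The other values lost the call and kept their direction, except that of Rpl8 above. Footprint depth limits the genes: at a mean minimum of 5 or 20 footprints per library, 34 or 40 members had too few.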
